A study of Mus musculus with 10 samples.

Results

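Lyz2 and 9 genes shared by macrophages, monocytes and other myeloid cells (Adgre1, Csf1r, Cd68, Mpeg1, Cybb, Aif1, Laptm5, Tyrobp and Fcer1g) were examined in whole liver. They were taken by symbol from a table of 19764 genes, and all 10 were found and had enough counts to be tested. The study compared 5 GRMAC libraries, from female mice with a floxed glucocorticoid receptor gene and heterozygous for LysM-Cre (LysM-Cre+/-), with 5 GRflox libraries, from littermates with the floxed gene and no Cre. Every mouse had been fasted for 8 h from ZT12, when the active phase begins; ages are not given in the labels, and no fed mice were analysed here. LysM-Cre acts in macrophages, monocytes and neutrophils and not in hepatocytes, which make up most of the liver. Because the controls lacked Cre, effects of the Cre insertion and of receptor loss cannot be told apart. Whole polyadenylated RNA was counted per gene, so fewer myeloid cells and less RNA per myeloid cell cannot be told apart either.

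Lyz2 encodes lysozyme M, a secreted enzyme that cuts bacterial cell walls and that myeloid cells make in large amounts. In the LysM-Cre line the Cre coding sequence was placed at the start codon of Lyz2, so that an allele with Cre does not encode lysozyme. The other 9 genes serve survival signals, engulfment and immune receptor signalling in phagocytes, and in liver the resident macrophages (Kupffer cells) are a major source. Their summed RNA can serve as a gauge of how much myeloid RNA a liver sample holds, against which Lyz2 can be read.

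The Lyz2 start region is shown because it is where Cre was inserted, and that of its neighbour Lyz1 because the paralogs are alike in sequence and reads can be assigned to either. Both are on the minus strand of chromosome 10 in GRCm38.p6 (RefSeq), at chr10:117282223-117282522 for Lyz2 and chr10:117292819-117293118 for Lyz1. Each window runs 5′ to 3′ from 250 bases before the start site to 50 bases after it, with the annotated start codon in capitals, 30 bases after the start site in both genes.
Lyz2: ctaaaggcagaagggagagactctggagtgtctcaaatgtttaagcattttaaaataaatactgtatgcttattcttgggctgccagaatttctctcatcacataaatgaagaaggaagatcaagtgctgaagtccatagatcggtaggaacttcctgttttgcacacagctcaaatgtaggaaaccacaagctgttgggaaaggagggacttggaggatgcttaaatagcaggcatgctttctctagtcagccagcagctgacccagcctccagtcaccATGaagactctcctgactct
Lyz1: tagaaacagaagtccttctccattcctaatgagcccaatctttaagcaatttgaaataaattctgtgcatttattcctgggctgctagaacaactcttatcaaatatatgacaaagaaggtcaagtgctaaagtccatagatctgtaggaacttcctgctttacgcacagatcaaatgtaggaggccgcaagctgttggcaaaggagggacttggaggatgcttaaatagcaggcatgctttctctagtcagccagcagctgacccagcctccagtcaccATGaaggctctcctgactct
Compared base by base without gaps, the windows were identical at 92 of the last 100 positions before the start site and at 49 of the 50 after it, and at 201 of all 300 positions. In spite of this likeness Lyz1 had 0 to 6 counts per library, against 406 to 1097 for Lyz2. Of the stretches of 50 bases in the longest Lyz2 transcript, 195 of 1267 (15.4%) also occur in Lyz1 transcripts (GENCODE M21), so a small part of the reads could be assigned to either gene.

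Lyz2 was lower in GRMAC liver, at about 65.1% of the GRflox mean, while the other 9 genes were level or higher. Lyz2 (NM_017372, chromosome 10, 117277541 to 117282272, mm10) was at 21.4, 20.1, 16.1, 29.6 and 18.01 CPM in GRMAC 1 to 5, against 30.5, 33.9, 28.0, 41.2 and 28.0 CPM in GRflox 1 to 5, where CPM is the count relative to the TMM-scaled library size. In 4 of the 5 GRMAC libraries Lyz2 lay below every GRflox library, and GRMAC 4 lay above the lowest GRflox values. The means were 21.1 ± 5.21 CPM in GRMAC and 32.3 ± 5.51 CPM in GRflox (SD, n = 5 each), a log2 fold change of −0.62 ± 0.16 (SE). This did not pass edgeR's quasi-likelihood test after Benjamini-Hochberg adjustment over 12558 genes (adjusted p = 0.114), whereas it passed in the authors' deposited table, made with DESeq2 (log2 fold change −0.62, adjusted p = 0.00907). A two-sided exact permutation test of the CPM values gave p = 0.0238 (smallest possible 0.00794). Without GRMAC 4 the log2 fold change was −0.77 (adjusted p = 0.0503, edgeR). Over the 10 edgeR fits that each left out 1 library, the adjusted p of Lyz2 ranged from 0.0503 to 0.197, and it passed in none.

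None of the 10 genes passed edgeR's threshold of adjusted p under 0.05, where 22 of 12558 tested genes (0.175%) did. By the authors' deposited comparison (their table of DESeq2 results), 2 of the 10 passed, Lyz2 as lower and Aif1 as higher, where 3.33% of 12737 genes with an adjusted p passed. At an unadjusted p under 0.05 with edgeR, 3 genes were higher (Aif1, Cybb, Cd68) and 1 was lower (Lyz2), where 16.3% of all tested genes passed that level. Libraries of the genotypes did not overlap for 2 of the 10 genes (Aif1 and Cybb), against 4.05% of all tested genes. Log2 fold changes were positive for 9 of 10 genes (50.2% of all tested genes), with a median of 0.21 over the 10 genes and of 0.001 over all genes.

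**Figure D1:**
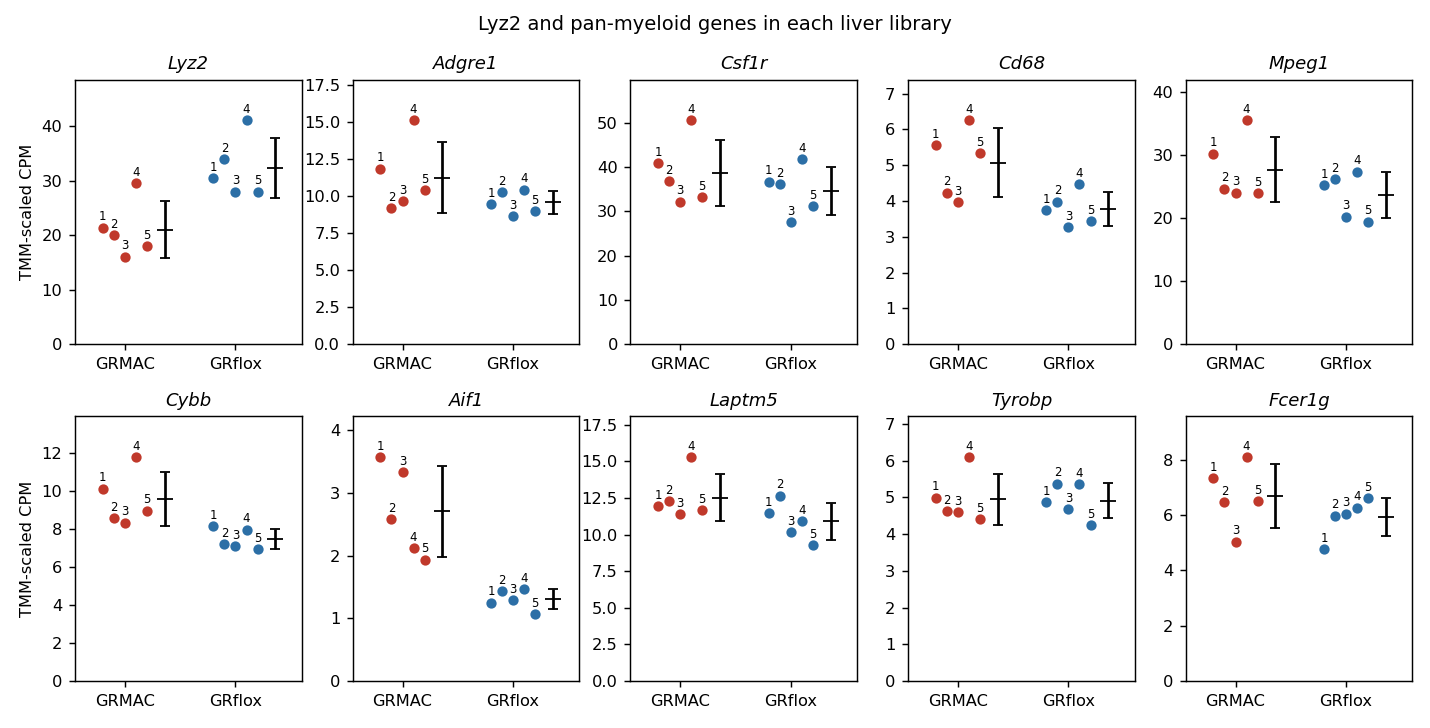
TMM-scaled CPM of Lyz2 and the 9 pan-myeloid genes in each library (points, numbered by replicate), GRMAC left and GRflox right in each panel, with mean and SD as a bar at the right of each group (n = 5). Every GRMAC point of Aif1 and Cybb lies above every GRflox point, and Lyz2 is lower in GRMAC apart from the overlap of GRMAC 4 (29.6 CPM).

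Aif1 had the largest log2 fold change of the 10 genes. It encodes IBA1, a calcium-binding protein of the macrophage actin cytoskeleton that is widely used as a stain for macrophages and microglia (NM_019467, chromosome 17, 35170992 to 35176001). It was at 3.58, 2.58, 3.33, 2.11 and 1.93 CPM in GRMAC 1 to 5, against 1.25, 1.43, 1.29, 1.46 and 1.07 CPM in GRflox 1 to 5. All 5 GRMAC libraries were above all 5 GRflox libraries, and the spread was wider in GRMAC. The means of 2.71 ± 0.727 CPM in GRMAC and 1.30 ± 0.157 CPM in GRflox (SD, n = 5 each) gave a log2 fold change of 1.05 ± 0.20 (SE), a ratio of 2.08. The edgeR adjusted p was 0.0543, just above the threshold, and the authors' deposited table had adjusted p = 0.000505. It passed with edgeR when GRMAC 5 was left out (1.15, adjusted p = 0.0258), and its adjusted p ranged from 0.000505 to 0.118 over the 18 alternatives. The gene rests on 29 to 84 counts per library. No other gene of the table overlaps it; of its neighbours on the same strand, Prrc2a, 6114 bases away, had a log2 fold change of −0.03 ± 0.06 and Lst1, 9093 bases away and also a leukocyte gene, had 0.80 ± 0.27 (adjusted p = 0.179, edgeR). These 2 neighbours were looked up after the values of Aif1 were seen.

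The surface receptors Adgre1 and Csf1r did not differ beyond their spread. Adgre1 encodes F4/80, an adhesion G protein-coupled receptor used to sort mouse macrophages (NM_010130, chromosome 17, 57358686 to 57483529). It was at 11.8, 9.20, 9.68, 15.1 and 10.4 CPM in GRMAC 1 to 5, against 9.48, 10.3, 8.67, 10.4 and 9.004 CPM in GRflox 1 to 5. The groups overlapped, with GRMAC 1 and GRMAC 4 above all GRflox libraries, and the log2 fold change was 0.23 ± 0.13 (adjusted p = 0.379, edgeR). Csf1r (NM_001037859), the receptor for the growth factors CSF1 and IL-34 on which macrophages depend for survival, was at 40.9, 36.9, 32.3, 50.7 and 33.3 CPM in GRMAC 1 to 5, against 36.7, 36.1, 27.7, 41.8 and 31.3 CPM in GRflox 1 to 5. Here only GRMAC 4 stood above the GRflox range (0.16 ± 0.14, adjusted p = 0.606, edgeR), and without GRMAC 4 the log2 fold change was 0.04. For Adgre1 it was 0.10 without that library. The CSF1R ligand genes Csf1 (0.36 ± 0.15, adjusted p = 0.256) and Il34 (0.27 ± 0.13, adjusted p = 0.300), named after their values were seen, did not pass with edgeR.

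Of the 4 phagosome and lysosome genes among the 10, Cd68 and Cybb had the larger log2 fold changes. Cybb encodes gp91phox, the catalytic subunit of the NADPH oxidase that makes superoxide in phagosomes (NM_007807, X chromosome, 9435254 to 9469324). It was at 10.1, 8.58, 8.33, 11.8 and 8.96 CPM in GRMAC 1 to 5, against 8.15, 7.18, 7.11, 7.96 and 6.94 CPM in GRflox 1 to 5. The groups did not overlap, though GRMAC 3 and GRflox 1 were close. The means were 9.56 ± 1.43 CPM in GRMAC and 7.47 ± 0.548 CPM in GRflox (SD, n = 5 each), a log2 fold change of 0.36 ± 0.11 that did not pass (adjusted p = 0.143, edgeR; adjusted p = 0.0682 in the authors' deposited table). Cd68, a heavily glycosylated membrane protein of late endosomes and lysosomes (NM_001291058, chromosome 11, 69664213 to 69666170), was at 5.56, 4.23, 3.97, 6.26 and 5.35 CPM in GRMAC 1 to 5, against 3.74, 3.99, 3.27, 4.47 and 3.43 CPM in GRflox 1 to 5. For Cd68, GRMAC 2 and GRMAC 3 lay within the GRflox range and the other three above it. Its log2 fold change was 0.42 ± 0.15 (adjusted p = 0.182, edgeR; exact permutation test of the CPM values, p = 0.0476).

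Mpeg1 encodes perforin-2, a pore-forming protein that acts on engulfed bacteria (NM_010821, chromosome 19, 12460779 to 12465285). It was at 30.3, 24.7, 24.1, 35.6 and 24.1 CPM in GRMAC 1 to 5, against 25.3, 26.2, 20.3, 27.4 and 19.5 CPM in GRflox 1 to 5. The groups overlapped widely (0.23 ± 0.13, adjusted p = 0.422, edgeR). Laptm5, a lysosomal membrane protein of blood cells that lowers antigen receptor levels (NM_010686, chromosome 4, 130913334 to 130936148), was at 11.9, 12.3, 11.4, 15.3 and 11.7 CPM in GRMAC 1 to 5, against 11.5, 12.7, 10.2, 10.9 and 9.30 CPM in GRflox 1 to 5. Apart from GRMAC 4, the GRMAC libraries lay within the GRflox range (0.20 ± 0.10, adjusted p = 0.352, edgeR). Without GRMAC 4 the log2 fold change was 0.12 for both Mpeg1 and Laptm5.

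The adaptors Tyrobp and Fcer1g did not differ beyond their spread. Both are small transmembrane proteins that pair with many myeloid receptors, and their cytoplasmic tails carry an activation motif. Tyrobp, also called DAP12 (NM_011662, chromosome 7, 30413788 to 30417579), was at 4.997, 4.62, 4.602, 6.11 and 4.40 CPM in GRMAC 1 to 5, against 4.88, 5.38, 4.68, 5.37 and 4.24 CPM in GRflox 1 to 5. Its means of 4.94 ± 0.685 CPM in GRMAC and 4.91 ± 0.481 CPM in GRflox (SD, n = 5 each) were nearly level (0.01 ± 0.12, adjusted p = 0.975, edgeR). Fcer1g, the common gamma chain of Fc receptors (NM_010185, chromosome 1, 171229572 to 171234349), was at 7.32, 6.46, 5.04, 8.10 and 6.497 CPM in GRMAC 1 to 5, against 4.76, 5.98, 6.05, 6.27 and 6.61 CPM in GRflox 1 to 5. GRMAC 3 was among the lowest and the groups overlapped (0.17 ± 0.13, adjusted p = 0.553, edgeR). Lyz2 lay below the GRflox range in 4 GRMAC libraries, and each adaptor in none.

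**Figure D2:**
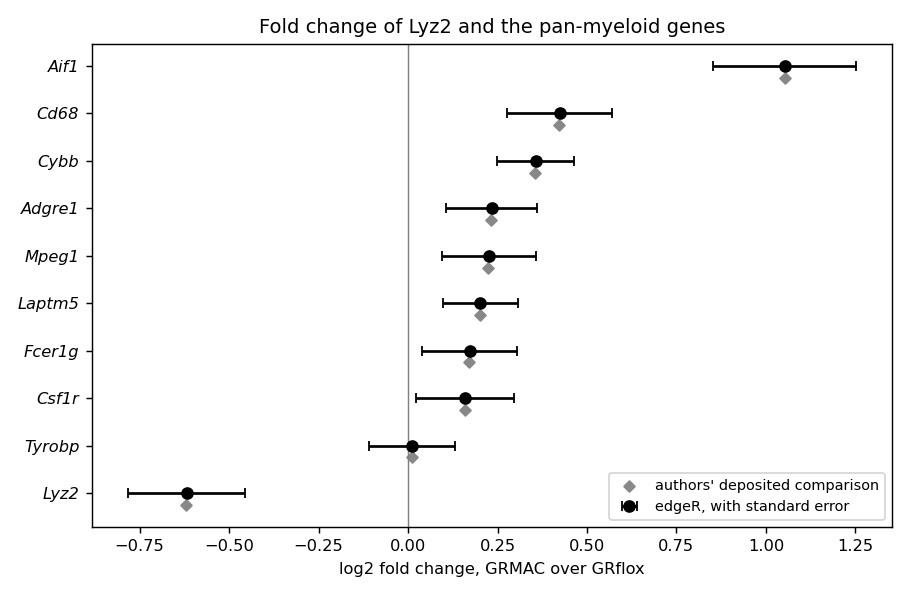
Log2 fold change of GRMAC over GRflox for each of the 10 genes, ordered by size (edgeR, with standard error, n = 5 per genotype), and the value from the authors' deposited table below each. Lyz2 (−0.62) is the only negative value, Tyrobp (0.01) is at 0, and Aif1 (1.05) is the highest.

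Expressed per kilobase of exon, the level of Lyz2 was the highest of the 10 genes in both genotypes, at 16 CPM per kb in GRMAC and 24.6 CPM per kb in GRflox. Next came the adaptors Fcer1g (8.94 CPM per kb in GRMAC, 7.93 in GRflox) and Tyrobp (8.77 in GRMAC, 8.70 in GRflox), whose order changed between the genotypes and which were not tested against each other. Csf1r, Mpeg1, Laptm5, Cd68 and Adgre1 followed in that order in both genotypes, and neighbours in this order were not tested against each other. Cybb was lowest in GRMAC (2.01 CPM per kb) and Aif1 lowest in GRflox (1.29 CPM per kb). Whether introns were counted is not stated, so these levels per exonic kilobase may be too high for genes with long introns.

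Read against the other 9 genes, Lyz2 separated the genotypes in every library. The summed level of those 9 genes was 127, 109, 103, 151 and 107 CPM in GRMAC 1 to 5, against 106, 109, 89.2, 116 and 91.3 CPM in GRflox 1 to 5. The groups overlapped, with means of 119 ± 19.98 CPM in GRMAC and 102 ± 11.6 CPM in GRflox (SD, n = 5 each), and the difference of 17.0 CPM became 9.02 CPM without GRMAC 4. Csf1r and Mpeg1 weighed most in this sum, with means of 38.8 and 27.7 CPM in GRMAC and 34.7 and 23.7 CPM in GRflox. For each 100 CPM of the 9 genes, a library held 16.9, 18.3, 15.7, 19.6 and 16.9 CPM of Lyz2 in GRMAC 1 to 5, against 28.8, 31.1, 31.4, 35.5 and 30.7 CPM in GRflox 1 to 5. The lowest GRflox value was above the highest GRMAC value. On the log2 scale Lyz2 minus the mean of the 9 genes was 1.13 ± 0.17 in GRMAC and 2.07 ± 0.12 in GRflox (SD, n = 5 each), a difference of −0.94. With Aif1 also left out of the mean, an alternative added later with the values known, the difference was −0.85. Leaving out single libraries gave −1.003 to −0.89. No p is given for these scores, since the genes were chosen with results of these data known. One count per gene cannot show which Lyz2 allele the reads came from, so the part of the Cre insertion in this difference was not tested.

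**Figure D3:**
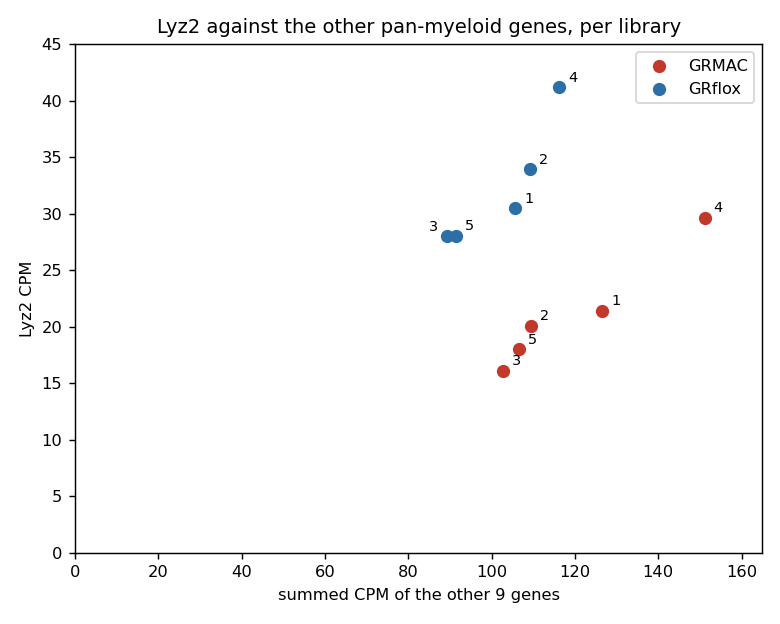
Lyz2 CPM (vertical) against the summed CPM of the other 9 genes (horizontal) in each library, numbered by replicate, both axes from 0. GRMAC points run along a lower line (15.7 to 19.6 CPM of Lyz2 per 100 CPM of the others) than GRflox points (28.8 to 35.5), and GRMAC 4 is highest on both axes within its genotype.

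With genotype means removed and both genotypes pooled, the log2 CPM of Lyz2 correlated over the 10 libraries with that of Csf1r (Pearson's r 0.94, permutation p = 0.00023, adjusted p = 0.00104; Spearman's rho 0.88, permutation p = 0.003, adjusted p = 0.0109). It correlated likewise with Tyrobp (r 0.90, permutation p = 0.00179, adjusted p = 0.00537; rho 0.85, adjusted p = 0.0109 by permutation) and Mpeg1 (r 0.89, permutation p = 0.00023, adjusted p = 0.00104; rho 0.87, adjusted p = 0.0109 by permutation). Of the 9 relations, adjusted over the 9, 7 passed by r (0.75 or more) and 5 by rho, all positive, and 1.37% of 11565 other genes had an r with Lyz2 at least as high as the lowest of the 7; by neither measure did those with Fcer1g (r 0.64, rho 0.58) and Aif1 (r −0.06, rho 0.08) pass by permutation. The 2 libraries farthest from the median of Lyz2 were GRMAC 4 and GRflox 4; without them r was 0.84 for Csf1r, 0.80 for Mpeg1, 0.73 for Tyrobp, 0.70 for Laptm5, 0.67 for Cd68, 0.65 for Adgre1, 0.57 for Cybb and 0.46 for Fcer1g. Before genotype means were removed no relation passed after adjustment by permutation, and that with Aif1 was negative (r −0.70, permutation p = 0.0257, adjusted p = 0.231; rho −0.55, permutation p = 0.105; r −0.66 without GRMAC 3 and GRMAC 5). GRMAC 4 had the highest level in its genotype of 8 of the 9 genes besides Lyz2, and GRflox 4 of 5 of the 9.

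Aif1 varied apart from the others across libraries. Over the 28 pairs among the 8 genes other than Lyz2 and Aif1, r with genotype means removed ranged from 0.23 to 0.94 with a median of 0.82, whereas Aif1 had r from −0.29 to 0.17 with those 8 genes. In GRMAC the highest values of Aif1 were in libraries 1 and 3, and GRMAC 4, highest for the 8 other genes, was among the lowest. These coefficients are descriptions over 10 libraries that share their scaling, and no p is given for them. Relative to the mean log2 CPM of the 8 genes, Aif1 was at −1.72, −1.98, −1.51, −2.73 and −2.42 in GRMAC 1 to 5, against −2.94, −2.83, −2.75, −2.85 and −3.03 in GRflox 1 to 5. Here too all GRMAC libraries were above all GRflox libraries, although GRMAC 4 came within the reach of GRflox 3.

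**Figure D4:**
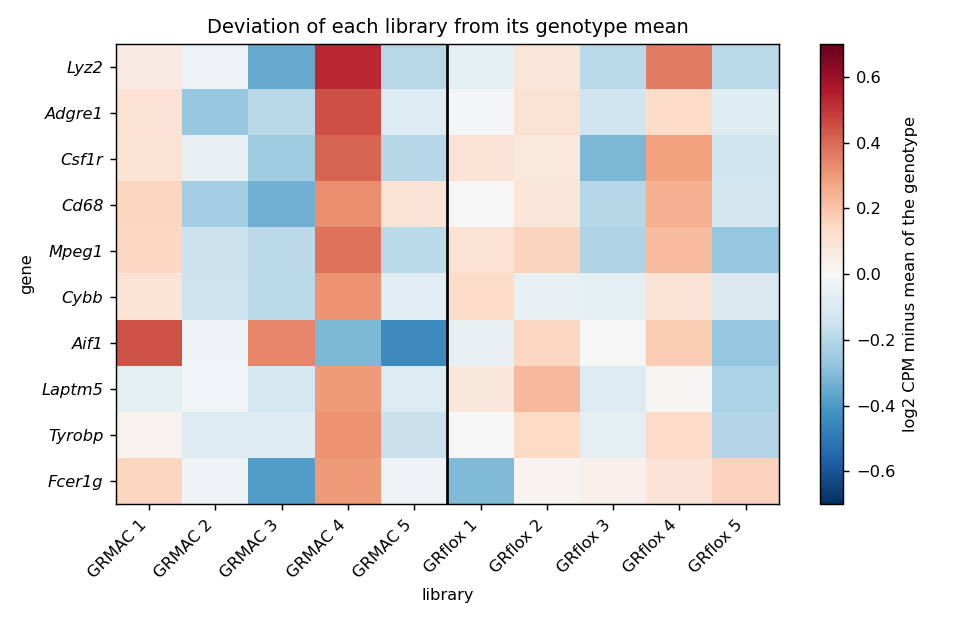
Log2 CPM of each gene (rows) in each library (columns, GRMAC left of the line and GRflox right) minus the mean of its own genotype; red is above and blue below that mean. GRMAC 4 is above its genotype mean for all genes but Aif1, which is highest in GRMAC 1 and GRMAC 3.

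The start region of Aif1 (chr17:35176003-35176302, minus strand, GRCm38.p6, RefSeq) and that of Cybb (chrX:9469275-9469574, minus strand) are shown because these were the genes whose libraries did not overlap between genotypes. Capitals mark GAGGAA or its reverse complement TTCCTC, a core that the myeloid transcription factor PU.1 (gene Spi1) and other ETS factors can bind; each window spans 250 bases before to 50 after the start site that RefSeq gives.
Aif1: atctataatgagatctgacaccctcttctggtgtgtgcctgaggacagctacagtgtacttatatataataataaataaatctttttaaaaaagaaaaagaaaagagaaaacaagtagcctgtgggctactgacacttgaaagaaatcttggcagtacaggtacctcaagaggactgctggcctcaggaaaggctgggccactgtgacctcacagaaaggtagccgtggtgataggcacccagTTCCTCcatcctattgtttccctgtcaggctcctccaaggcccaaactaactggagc
Cybb: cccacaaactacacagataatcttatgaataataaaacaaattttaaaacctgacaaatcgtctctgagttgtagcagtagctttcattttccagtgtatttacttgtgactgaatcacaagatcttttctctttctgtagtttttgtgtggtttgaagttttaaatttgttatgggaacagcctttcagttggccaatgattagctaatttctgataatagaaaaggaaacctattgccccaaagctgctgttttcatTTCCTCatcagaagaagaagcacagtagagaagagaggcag
The match starts 7 bases before the start site of the window in Aif1 and 9 bases after it in Cybb. In Cybb that site is the start of the counted transcript, whereas in Aif1 it lies 51 bases upstream of it, so the whole Aif1 window is upstream of the counted transcript. Of the 7 genes with a window in the RefSeq table, 4 held the motif on either strand (Aif1, Cd68, Cybb and Laptm5), as did 28.3% of all 32851 windows; the longer form GAGGAAGT (reverse ACTTCCTC), in which the shorter one is contained, was in none of the 7 and in 3.20% of all windows. TTGCNNAA (reverse TTNNGCAA), a form bound by C/EBP factors, was in 1 of the 7 (Cd68) and in 10.8% of all windows. The RNA of Spi1 was at 4.62 ± 0.862 CPM in GRMAC and 4.21 ± 0.989 CPM in GRflox (SD, n = 5 each; log2 fold change 0.13 ± 0.18, adjusted p = 0.759, edgeR).

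Related genes and markers of liver cell types were taken from 16 lists. In 15 of these no gene passed the edgeR threshold, which 0.175% of all tested genes passed. The exception was Cd163, a scavenger receptor, which was lower and was the 1 gene to pass of the 10 tested Kupffer cell markers. It was at 3.07 ± 0.493 CPM in GRMAC and 28.7 ± 7.81 CPM in GRflox (SD, n = 5 each). Its log2 fold change was −3.22 ± 0.19 (adjusted p = 2.55e-05, edgeR). Of the 10 Kupffer cell markers 7 had positive and 3 negative log2 fold changes (median 0.10). At an unadjusted p under 0.05 with edgeR 4 were higher, where 1078 of all 12558 tested genes were. These were Cd5l (0.55 ± 0.13), Folr2 (0.41 ± 0.14), Clec1b (0.37 ± 0.13) and Slc40a1 (0.35 ± 0.13). Besides Cd163 the negative ones were Marco (−0.85 ± 0.40) and C6 (−0.32 ± 0.22), and Timd4 was at 0.11 ± 0.10. Clec4f, a lectin found on Kupffer cells, was at 98.0 ± 13.3 CPM in GRMAC and 93.4 ± 10.8 CPM in GRflox (SD, n = 5 each; log2 fold change 0.07 ± 0.10, adjusted p = 0.769, edgeR). Vsig4, their complement receptor, differed by 0.08 ± 0.13 on the log2 scale (adjusted p = 0.791, edgeR).

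Lysozyme relatives gave little signal. Besides Lyz2, only Lyzl4 had enough counts to be tested, with 9 to 22 per library and −0.16 ± 0.28 as its log2 fold change (adjusted p = 0.812, edgeR). Lyzl1, Lyzl6, Lyg1, Lyg2 and Lalba had 0 counts in all libraries; 3 counts in a library correspond to 0.111 to 0.129 CPM.

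Of the 8 tested genes of the phagocyte NADPH oxidase list other than Cybb, 4 had positive log2 fold changes (median −0.02). Rac2, a small GTPase of the complex in blood cells, had the largest (0.52 ± 0.17, adjusted p = 0.169, edgeR), above that of Cybb. The partner of Cybb in the membrane, Cyba, was at 5.98 ± 0.405 CPM in GRMAC and 5.94 ± 0.335 CPM in GRflox (SD, n = 5 each; log2 fold change 0.01 ± 0.09). The cytosolic subunits Ncf1 (0.18 ± 0.17, adjusted p = 0.642, edgeR) and Ncf4 (−0.06 ± 0.23, adjusted p = 0.928, edgeR) did not pass either. A further list held myeloid receptors and kinases, not all of them partners of the adaptors Tyrobp and Fcer1g. Of its 17 tested genes, the adaptors themselves not counted, 11 were positive and the median was 0.03. The lowest p was that of Pilra, an inhibitory receptor (3.69 ± 0.613 CPM in GRMAC and 2.27 ± 0.330 CPM in GRflox, SD, n = 5 each; log2 fold change 0.70 ± 0.15, adjusted p = 0.0677, edgeR); it was higher in the authors' deposited table (adjusted p = 0.00481). Clec7a, the beta-glucan receptor dectin-1 (0.81 ± 0.18), and Fcgr1, the high-affinity IgG receptor that signals through Fcer1g (0.72 ± 0.20), were also higher in the authors' deposited table (adjusted p = 0.00373 and adjusted p = 0.0358), and neither passed with edgeR (adjusted p = 0.0701 and adjusted p = 0.116). These 2 were named after their values were seen. Of the 17 genes 6 were negative. Among these were 2 further Fc receptor genes, Fcgr3 (−0.41 ± 0.20, adjusted p = 0.3255, edgeR) and Fcgr4 (−0.29 ± 0.16, adjusted p = 0.385, edgeR).

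The 22 tested pan-leukocyte genes had a median log2 fold change of 0.23, and 20 were positive. Ptprc, the CD45 phosphatase gene, was at 10 ± 1.76 CPM in GRMAC and 8.88 ± 1.16 CPM in GRflox (SD, n = 5 each; log2 fold change 0.17 ± 0.13, adjusted p = 0.529, edgeR). Inpp5d, the SHIP1 phosphatase gene, had the lowest p of that list (0.44 ± 0.14, adjusted p = 0.165, edgeR). Their summed level ranged from 105 to 138 CPM in GRMAC and from 99.3 to 116 CPM in GRflox. Phagosome and lysosome genes (16 tested besides the 10 genes) had a median of −0.01 and myeloid transcription factor genes (16 tested) a median of 0.03, where Nr1h3, the LXR alpha gene, had the lowest p (−0.16 ± 0.05, adjusted p = 0.145, edgeR) and was lower in the authors' deposited table (adjusted p = 0.0204). Growth factor receptors and ligands (6 tested besides Csf1r) had a median of 0.11, with Csf2rb lowest in p (−0.50 ± 0.17, adjusted p = 0.177, edgeR). The list of complement C1q, integrins and other surface receptors (15 tested) had a median of 0.08. Sirpa, the receptor for CD47, had the lowest p (0.38 ± 0.09, adjusted p = 0.0889, edgeR) and was higher in the authors' deposited table (adjusted p = 0.0172), whereas C1qa (−0.04 ± 0.09) was level. At an unadjusted p under 0.05 with edgeR, 2 genes of this list were higher and 2 lower. The lower ones were Itgam (−0.52 ± 0.21, adjusted p = 0.2315, edgeR) and C5ar1 (−0.76 ± 0.35, adjusted p = 0.298, edgeR).

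Among markers of other cells that could carry Lyz2 or pan-myeloid RNA, most neutrophil genes were near the floor, and their summed level of 9.91 to 23.4 CPM in GRMAC and 8.02 to 22.7 CPM in GRflox was mostly Lcn2 (log2 fold change 0.35 ± 0.39, adjusted p = 0.714, edgeR), with S100a8 at 1 to 17 counts and Ly6g at 0 to 6 counts per library, and only 2 of 14 neutrophil markers in the table were tested. The summed level of the 15 monocyte markers did not overlap, at 2205 to 2528 CPM in GRMAC and 1884 to 2126 CPM in GRflox, and was nearly all Fn1, the fibronectin gene, which hepatocytes also express (2297 ± 123 CPM in GRMAC and 2014 ± 99.2 CPM in GRflox, SD, n = 5 each; log2 fold change 0.19, adjusted p = 0.188 with edgeR and adjusted p = 0.0347 in the authors' deposited table). Of the 7 tested, 4 were positive (median 0.19). Ly6c2 had 2 to 14 counts per library and Ccr2 was at 0.945 ± 0.149 CPM in GRMAC and 0.613 ± 0.0901 CPM in GRflox (SD, n = 5 each; log2 fold change 0.62 ± 0.21, adjusted p = 0.178, edgeR). Dendritic cell markers (6 tested) had a median of 0.07 (Zbtb46 0.39 ± 0.15), and lymphocyte markers (7 tested) a median of 0.33. Medians were 0.04 for sinusoidal endothelial markers (Stab2 0.23 ± 0.08), 0.11 for stellate cell and cholangiocyte markers (Colec11 0.20 ± 0.08) and 0.05 for hepatocyte markers (Fgb 0.37 ± 0.09, higher in the authors' deposited table with adjusted p = 0.00561). The part of such cells in the differences of the 10 genes was not tested. Alb, the main hepatocyte transcript, had 2309784 to 3007843 counts per library. Library totals were 23258884 to 26116916 counts in GRMAC and 25697931 to 27692528 in GRflox.

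**Figure D5:**
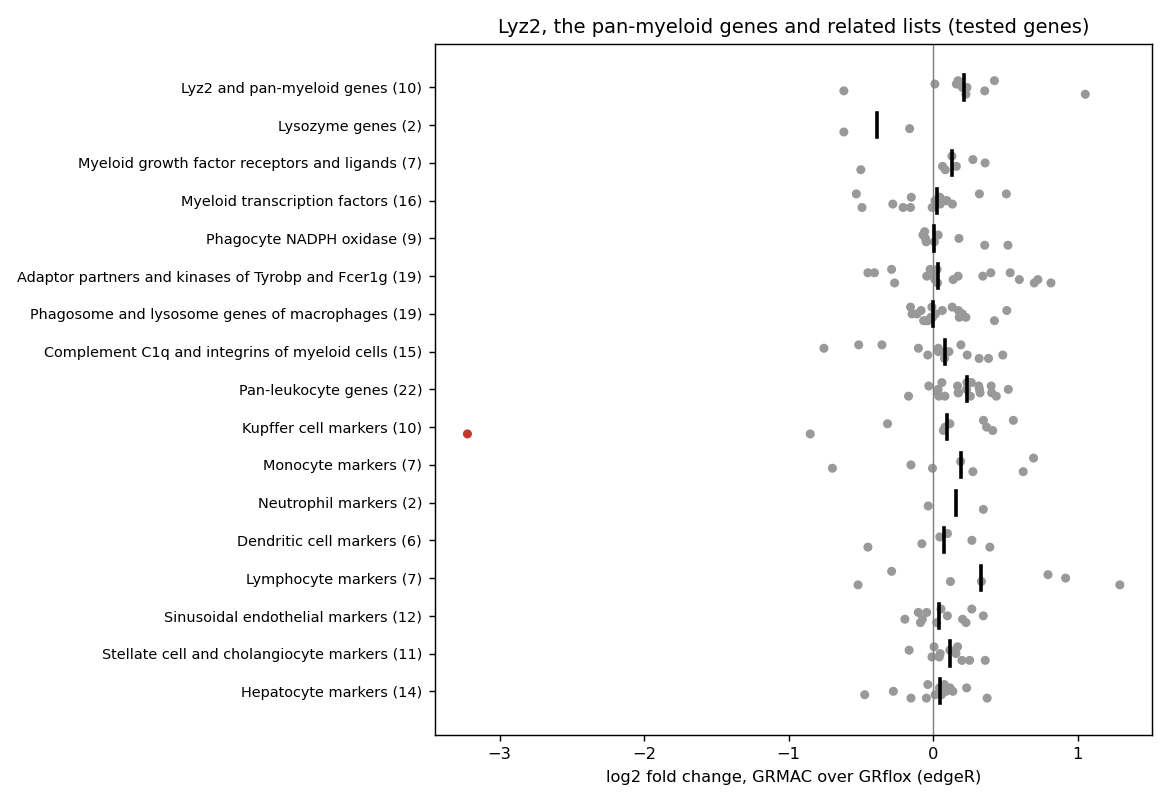
Log2 fold change (edgeR, GRMAC over GRflox) of each tested gene of the 10 and of the 16 related lists, with the number of tested genes in brackets (including those of the 10 that a list holds) and the median as a black bar. Red marks a gene past adjusted p of 0.05, which is Cd163 (−3.22); the pan-leukocyte genes lie mostly to the right of 0 (20 of 22).

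Over all 11565 other genes with a mean of at least 1 CPM, those whose log2 CPM followed Lyz2 most closely over the 10 libraries were Sap30l (Pearson's r 0.95), Pik3r5 (0.95), Ppm1l (0.93), Rufy1 (0.93) and Cxcl13 (0.93). Pik3r5 encodes a regulatory subunit of a phosphoinositide 3-kinase of leukocytes, and Cxcl13 a chemokine that attracts B cells. Cxcl13 was at 0.977 ± 0.328 CPM in GRMAC and 4.03 ± 2.66 CPM in GRflox (SD, n = 5 each; log2 fold change −2.04 ± 0.41, adjusted p = 0.0649, edgeR), and Pik3r5 at 1.17 ± 0.475 CPM in GRMAC and 1.95 ± 0.415 CPM in GRflox (−0.73 ± 0.25, adjusted p = 0.189, edgeR). The genes most like the mean of the other 9 genes were Odf2 (r 0.98), Zfp956 (0.97), Cd5l (0.96), Micu3 (0.95) and Abl1 (0.95). Cd5l, a secreted protein of tissue macrophages and a Kupffer cell marker, was at 67.8 ± 12.5 CPM in GRMAC and 46.2 ± 7.27 CPM in GRflox (SD, n = 5 each; log2 fold change 0.55 ± 0.13, adjusted p = 0.0928 with edgeR and adjusted p = 0.0056 in the authors' deposited table). These genes were chosen for their likeness, so no p is given for it.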

How the data were processed

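Liver RNA was sequenced in 5 GRMAC and 5 GRflox libraries as polyadenylated RNA (NEBNext Ultra kit, paired-end), per the labels' protocols. The authors deposited whole-number counts per gene, unnormalized per the file headers; the tools listed in the submitters' processing notes are HISAT2 2.1.0 and DESeq2 1.24.0, with the build mm10. The counting program, strand setting and annotation are not given in the sources used here. Log2 fold changes of the authors' deposited comparison, and its adjusted p-values, were copied as given; 10 columns of values per library in that table were not used. The labels number libraries within a genotype but do not say that each is a separate animal, so p-values measure the spread between these samples.

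Low-count genes were removed with filterByExpr (edgeR 4.0.16, R 4.3.3), leaving 12558 of 19764 genes and removing 0.0348% of counts. The genotypes were compared, GRMAC over GRflox, with the quasi-likelihood test of edgeR after TMM scaling and robust estimation, adjusted by Benjamini-Hochberg over all tested genes (threshold 0.05). Single values were compared by two-sided exact permutation over 252 assignments, and correlations by 100000 permutations (within genotype where genotype means were removed). Alternatives were DESeq2 1.42.0, limma-voom (limma 3.58.1), other scalings, no filter, no robust estimation, the replicate number as a block, leaving out each library, and correcting for exonic length together with GC content (GENCODE M21, 96.9% of tested genes). The scripts were tested on simulated data. The 10 genes and the lists were chosen with earlier results of these data known. Named genes were the 10, Lyz1, the 5 most like Lyz2 and the 5 most like the mean of the others by Pearson's r, and from each list up to 4 genes past the threshold or else the one with the lowest p; all other named genes (among them Spi1, Clec4f, Vsig4, Folr2, Clec1b, Slc40a1, Marco, C6, Timd4, Rac2, Cyba, Ncf1, Ncf4, Ptprc, C1qa, Lcn2, S100a8, Ly6g, Ly6c2, Fn1, Lyzl4 and Alb) were chosen after their values were seen. Some genes the rule would name are not reported here. Start positions of the count table were printed with the first base counted as 1.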

Additional observations from a re-analysis of the deposited data

Results flagged for a closer look

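In 26 groups of 5 values 2 held 1 library far from the other 4, where chance gives about 1 in 20. Laptm5 was at 15.3 CPM in GRMAC 4, against 11.4 to 12.3 CPM in the other GRMAC libraries. Log2 Lyz2 CPM minus the mean log2 CPM of the other 9 genes was 2.28 in GRflox 4, and the remaining GRflox values were 1.99 to 2.06.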

How the results depend on the processing

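Lyz2 was lower in GRMAC under all 18 alternatives (log2 fold change −0.77 to −0.52), and −0.77 to −0.52 was also the range when a library was left out. It passed with DESeq2 (−0.62, adjusted p = 0.00907) and with the replicate block in edgeR (−0.63, adjusted p = 0.00579). The DESeq2 values equal those of the authors' deposited table, so the 2 are not separate results. Aif1 passed in 4 alternatives. Of the 10 genes, 2 passed with DESeq2 and 1 each with library totals only, without a filter, with the replicate block and without GRMAC 5, so that leaving out a library gave 0 to 1; the cause was not tested. Tyrobp ranged from −0.077 to 0.0504 when a library was left out, with −0.077 without GRMAC 4, −0.0022 without GRflox 3 and −0.037 without GRflox 5. Over all genes 22 passed, against 424 with DESeq2, 8 with limma-voom, 8 without robust estimation, 34 without a filter, 81 with the replicate block, 9 with the GC and length correction, and 5 to 47 without 1 library (5 without GRflox 3 or GRflox 5, 47 without GRMAC 5); with all of these the fold changes of the 8 genes other than Lyz2 and Tyrobp were positive. Same-numbered libraries correlated in their deviations at −0.13 to 0.23, with 2 of 5 over 0.1. The labels do not say whether equal numbers are paired, and these few weak correlations cannot decide it. Aif1, with 29 to 84 counts per library, had the fewest counts of the 10 genes, and the part of depth in its spread was not tested.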
